A study of Mus musculus with 10 samples.

Results

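The genes that store TGF-beta in the matrix and release it were read on arrays of mouse secondary palate at E14.5 (embryonic day), while the palatal shelves fuse. They are the latent TGF-beta binding proteins (Ltbp1 to Ltbp4), the anchoring protein Nrros, the fibrillins, and the integrin subunits Itgav, Itgb6 and Itgb8. Members were chosen by symbol: every probe set (a group of short probes on the array that together report a transcript) to which the platform annotation gives exactly 1 gene symbol among 10 named genes. This gave 20 of the 45101 probe sets on the array, for 9 of the 10 genes. No probe set carried the symbol Fbn1 in the annotation used, so Fbn1 was not analysed here. The mutant group had 5 arrays from Tgfbr2fl/fl;Wnt1-Cre embryos, in which the Cre recombinase deletes Tgfbr2, the type II TGF-beta receptor, in cells of the neural crest lineage. The control group had 5 arrays from Tgfbr2fl/fl embryos, which carry the same floxed alleles with no Cre in the genotype and are called wildtype in the titles. The strain label of both groups is C57B6, the sex is labelled as not determined, and no treatment is given. Wnt1-Cre acts in the neural crest, so palate cells of other origin (epithelium, endothelium, muscle, leukocytes) keep the receptor, and a dissected palate can hold all of them. The question behind the comparison is which palate genes TGF-beta controls while the palate forms. Nothing in the labels says that the arrays are of different embryos; the p-values then measure only how far these samples spread, which may be technical.

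TGF-beta is secreted in a latent form, in which the mature ligand stays wrapped in its own prodomain, the latency-associated peptide. The latent binding proteins attach covalently to that peptide and tie it to fibrillin microfibrils and fibronectin, while Nrros presents latent TGF-beta 1 on the surface of macrophages and microglia. Integrins of the alpha-v family bind an RGD motif in the peptides of TGF-beta 1 and TGF-beta 3 and free the ligand, with beta 6 acting mainly on epithelia. In the palate, TGF-beta 3 made by the edge epithelium is known to be needed for fusion of the shelves.

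Within this gene set, 2 transcripts changed in the mutant palate, in opposite directions and by small amounts. Ltbp4 rose 1.23-fold and Nrros fell 1.32-fold. The other 18 probe sets, those of Ltbp1, Ltbp2, Ltbp3, Fbn2, Itgav, Itgb6 and Itgb8, did not pass the test. Differences were tested with limma across all 45101 probe sets, and a probe set counted as changed at a Benjamini-Hochberg adjusted p under 0.05. Over the whole array 3.25% of probe sets changed, 1.08% higher and 2.18% lower, so the 1 higher and 1 lower of 20 are counts too small to set the gene set apart from that background. Without control replicate 1 both were still called, with 4.41% of all probe sets. Without mutant replicate 3 only 1 was called, and without any other single array 0 were. With the Y-linked gene Eif2s3y as a covariate 0 were called as well. With all arrays, the median log2 fold change was 0.01 over the 20 member probe sets and 0.00 over all probe sets. When each gene was represented by its brightest probe set, 2 of 9 member genes changed (1 higher, 1 lower), against 8.26% of 18194 genes (2.90% higher and 5.36% lower).

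**Figure D1:**
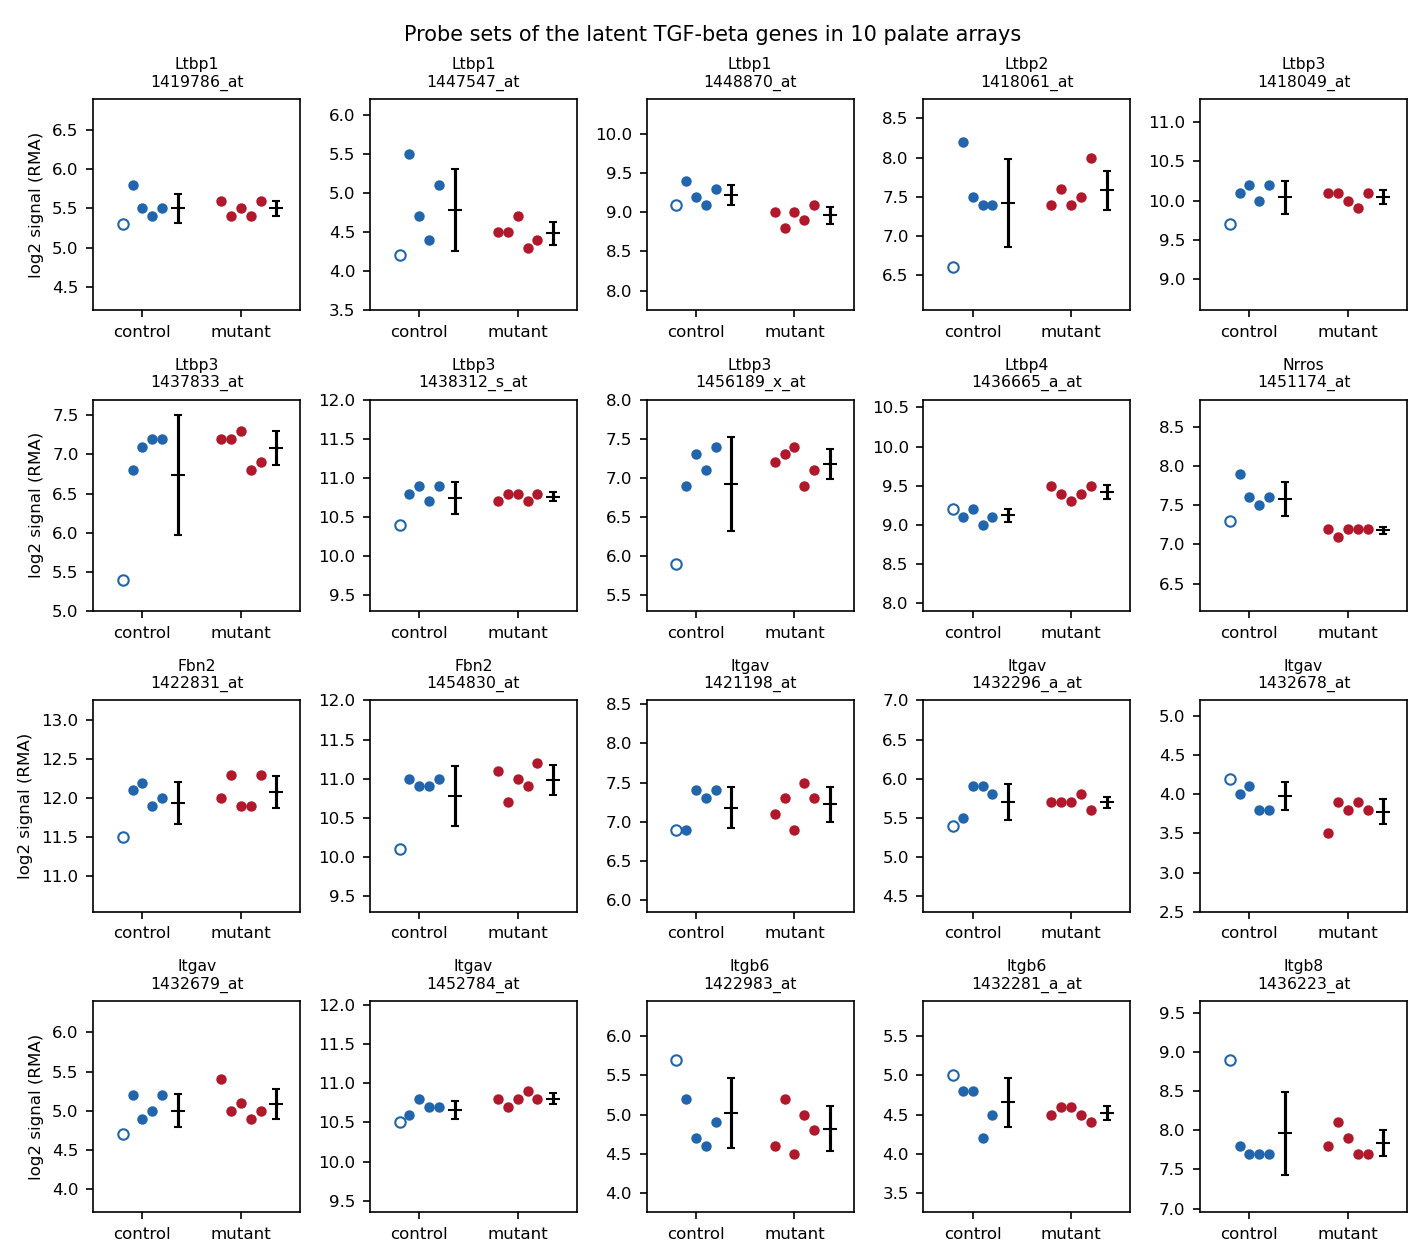
Log2 signal of each of the 20 member probe sets in the 5 control arrays (blue, control replicate 1 as an open circle) and the 5 mutant arrays (red), with the mean and SD of each group beside the points; every panel spans the same number of log2 units. Mutant and control arrays separate for Ltbp4 (9.3 to 9.5 against 9.0 to 9.2) and Nrros (7.1 or 7.2 against 7.3 to 7.9), and control replicate 1 lies apart for Ltbp3, Fbn2 and Itgb8.

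Control replicate 1 was unlike the remaining 9 arrays, with correlations of 0.978 to 0.982 with them against 0.990 to 0.996 among themselves. It was the lowest of all 10 arrays for 12 of the 20 member probe sets and the highest for 4. Over all probe sets it was the lowest for 18.3% and the highest for 20.1%. All 10 markers of palate mesenchyme had means between 8.88 and 12.30 on the log2 scale, above the array medians of 6.4 or 6.5. Of 95 marker genes of palate cell types, 2 were higher in the mutant, 15 lower and 78 not called, and 10 of the lower ones were skeletal muscle genes. Of all genes, 2.90% were called higher and 5.36% lower. All 13 skeletal muscle markers lay below 0, with a median log2 fold change of -1.86. Mutant replicate 4 read like a control: its median deviation from the mean of the arrays was 0.58. Controls lay between 0.38 and 2.02 and the other mutants between -1.59 and -0.78. Mutant arrays lay below all controls for 1 of the 13, where 4.93% of all genes did so. With each array left out in turn, the 10 calls held in 1 to 10 of 10 fits. Of 10 smooth muscle and pericyte markers, 3 were lower: Acta2 (-0.72), Myh11 (-0.52) and Rgs5 (-0.46). The median of those 10 markers was -0.06, with 4 above 0 and 6 below, the highest being Pdgfrb (0.34, not called). With each array left out in turn, the Myh11 call held in all 10 fits, and those of Acta2 and Rgs5 in 5 each. Cell types other than those of muscle had 0 to 2 called genes each, among them Tbx22 of the mesenchyme (higher), Barx1 of the mesenchyme (lower) and Cldn5 of endothelium (lower). Tgfbr2 itself did not pass the test on any of its 3 probe sets (log2 fold changes of 0.08, -0.04 and -0.08). The sources used here do not place them against the floxed sequence, so they check nothing about the deletion. The Y-linked gene Eif2s3y stood between 9.0 and 9.3 in controls 1 and 4 and in mutants 1 to 4, and between 3.2 and 5.1 in the other 4 arrays, so the arrays that read high for it were 4 of 5 mutants and 2 of 5 controls.

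Ltbp4 encodes a latent binding protein that also serves elastic fibre assembly, and its single probe set (1436665_a_at) read higher in every mutant array. Log2 signal was 9.5, 9.4, 9.3, 9.4 and 9.5 in mutant replicates 1 to 5. It was 9.2, 9.1, 9.2, 9.0 and 9.1 in control replicates 1 to 5. All mutant arrays thus lay above all control arrays, with the closest pair 0.1 apart, which is the rounding step of the deposited values. Over the array, 1.45% of probe sets and 1.82% of genes separated the groups in this way. The means were 9.42 ± 0.08 in mutants and 9.12 ± 0.08 in controls (log2, SD, n = 5 each), and the log2 fold change was 0.30 (SE 0.06, 95% confidence interval 0.16 to 0.44, limma adjusted p = 0.0325). An exact two-sided permutation test of the group means gave p = 0.00794, the smallest that 5 against 5 arrays can give. The adjusted p was 0.0169 when adjusted over genes. With each array left out in turn, the call held in all 10 fits across genes and in 2 of 10 fits across probe sets, with adjusted p of 0.0243 to 0.0822 in the latter, where only the fits without mutant replicate 3 or control replicate 1 kept it. It was also lost across probe sets when arrays were centred on their medians (0.0640), and when Eif2s3y was a covariate (0.33, adjusted p = 0.0585).

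Nrros, which encodes a leucine-rich repeat protein known for holding latent TGF-beta 1 on myeloid cells, was the member that fell. Its probe set (1451174_at) read 7.2, 7.1, 7.2, 7.2 and 7.2 in mutant replicates 1 to 5, a spread of a single rounding step. Control replicates 1 to 5 read 7.3, 7.9, 7.6, 7.5 and 7.6. All mutant arrays lay below all controls, as they did for 3.41% of all probe sets and 4.93% of genes, and the nearest control was replicate 1. The means were 7.18 ± 0.04 in mutants and 7.58 ± 0.22 in controls (SD, n = 5 each). The log2 fold change was -0.40 (SE 0.10, 95% confidence interval -0.61 to -0.19, limma adjusted p = 0.0472; exact two-sided permutation p = 0.00794). Adjusted over genes, p was 0.0255. Without control replicate 1 the difference was -0.47 (adjusted p = 0.0117), and without control replicate 2, the highest array, it was -0.32 (adjusted p = 0.0520). With each array left out in turn, the call held across probe sets only without control replicate 1. Across genes it held in 4 of 10 fits, those without mutant replicate 4 or control replicates 1, 2 or 4 (adjusted p of 0.0063 to 0.0593 over the 10). With Eif2s3y as a covariate the log2 fold change was -0.29 and was not called (limma adjusted p = 0.138).

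**Figure D2:**
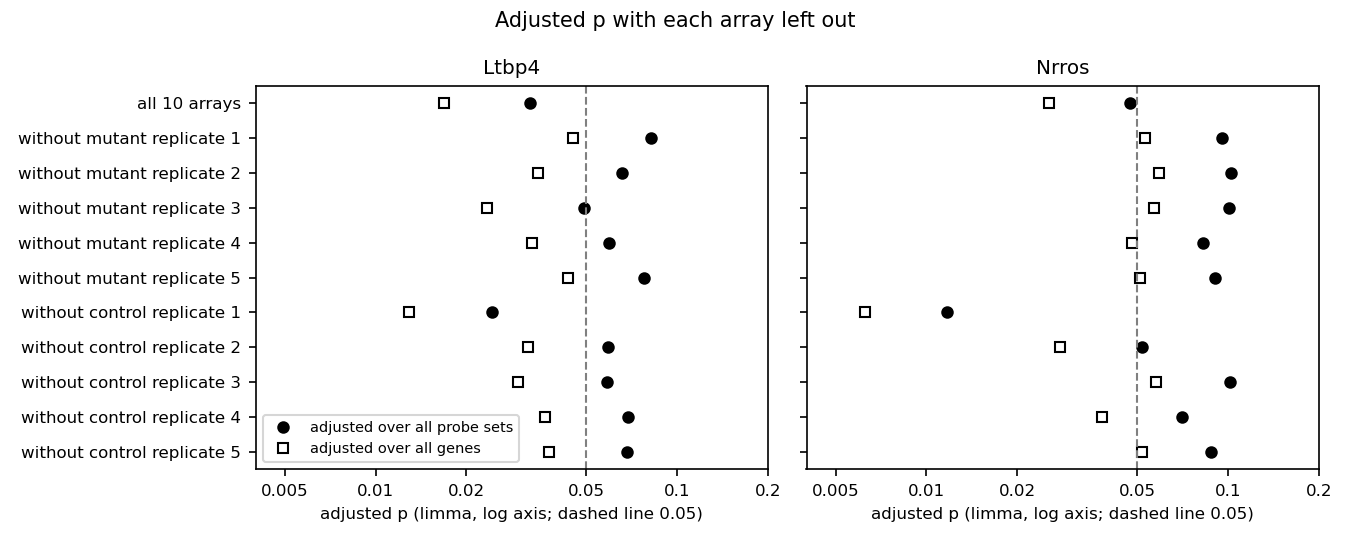
Adjusted p (log axis) of Ltbp4 and Nrros with all 10 arrays and with each array left out, adjusted over all probe sets (filled circles) or over all genes (open squares); the dashed line is 0.05. Ltbp4 stays under 0.05 in every fit across genes (0.0129 to 0.0452), while most fits of Nrros without an array lie between 0.0479 and 0.103.

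Because Nrros is a myeloid gene, the markers of macrophages and leukocytes were set beside it. In whole tissue, fewer cells of a type and less RNA per cell cannot be told apart. Of 20 such markers, 1 was higher in the mutant (Laptm5, encoding a lysosomal protein of leukocytes, 0.28, limma adjusted p over genes = 0.0477), none was lower, and 19 were not called. Of all genes, 8.26% were called. Without control replicate 1, 2 of the 20 were higher, Ctss and Cx3cr1, near the 9.88% of all genes called in that fit. At an unadjusted p under 0.05, 4 of the 20 markers differed, all higher, where 25.2% of all genes did, a share no smaller than theirs. The Laptm5 call held in 1 of 10 fits that left out an array. Their median log2 fold change was -0.04, with 9 above 0 and 11 below. Csf1r, the receptor that macrophages depend on, moved by 0.14 and the complement gene C1qa by 0.38, while Tyrobp and Mrc1 each had -0.22, and none of these was called. The log2 of their mean linear signal lay between 7.66 and 7.90 in mutants and between 7.49 and 8.0 in controls. Control replicate 2, the highest array for Nrros, was also the highest for the median of these markers, at 0.26 above the mean of the arrays. Control replicate 1, the lowest control for Nrros, was at 0.05 for those markers, above the other 3 controls (-0.23 to -0.05). Of the 20 markers, 16 had means above the array medians. Their part in the fall of Nrros was not tested.

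**Figure D3:**
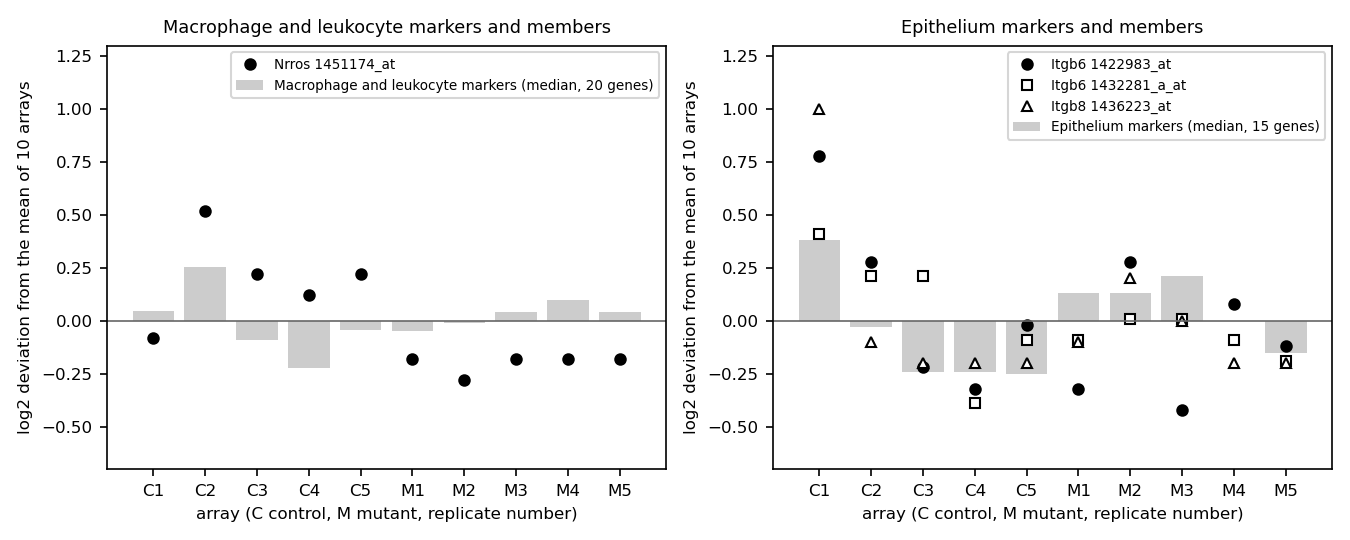
Deviation of each array from the mean of all 10 (log2 units) for the median of a marker list (grey bars) and for members (symbols), in controls C1 to C5 and mutants M1 to M5. At left, Nrros lies between -0.28 and -0.18 in every mutant while the macrophage and leukocyte median lies between -0.05 and 0.10; at right, Itgb6 and Itgb8 are highest in control replicate 1, where the epithelial median is also highest (0.38).

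The upstream sequences of the 2 changed genes are shown because these are the members whose RNA differed between genotypes. They are the 250 bases before an annotated start, from RefSeq on GRCm38.p6, 5′ to 3′ on the gene's strand. The table lists separate starts for Ltbp4, and the sources used here do not say which of them the probe set reads. Capitals mark matches to CAGAC or its reverse complement GTCTG, the short box that SMAD proteins bind.
Ltbp4 upstream start (chr7:27337613-27337862, minus strand): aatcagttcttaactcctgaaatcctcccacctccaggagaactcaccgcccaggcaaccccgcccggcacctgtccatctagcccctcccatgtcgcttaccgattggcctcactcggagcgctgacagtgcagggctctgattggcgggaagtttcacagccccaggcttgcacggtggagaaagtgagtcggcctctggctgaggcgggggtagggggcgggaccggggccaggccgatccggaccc
Ltbp4 downstream start (chr7:27333649-27333898, minus strand): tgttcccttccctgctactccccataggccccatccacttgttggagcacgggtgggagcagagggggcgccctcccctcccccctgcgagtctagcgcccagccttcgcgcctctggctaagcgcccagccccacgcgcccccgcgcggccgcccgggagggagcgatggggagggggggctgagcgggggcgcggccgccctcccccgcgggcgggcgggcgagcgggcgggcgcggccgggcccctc
Nrros (chr16:32165595-32165844, minus strand): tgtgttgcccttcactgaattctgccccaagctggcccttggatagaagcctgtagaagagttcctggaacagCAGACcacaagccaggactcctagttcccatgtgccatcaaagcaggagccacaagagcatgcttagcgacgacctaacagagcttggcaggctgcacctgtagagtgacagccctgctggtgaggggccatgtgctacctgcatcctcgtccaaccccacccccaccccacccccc
The Nrros window held 1 match on its own strand and neither Ltbp4 window shown held any, on either strand. A further Ltbp4 window (chr7:27333664-27333913), which overlaps the downstream one and is not printed, held none either. Of 32851 windows of this length in the table, 42.2% held a match. The hexamer GAGGAA or its reverse complement TTCCTC, the core that the myeloid factor PU.1 binds, was in none of the 3 printed windows. It was also absent from the further Ltbp4 window, against a match in 23.3% of all windows. The GC content was 64.4% and 79.2% in the Ltbp4 windows and 58.4% in that of Nrros, with a median of 52.4% over all windows. These matches are descriptions of letters in a window only.

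Among the other latent binding proteins, Ltbp1, whose product forms the large latent complex with TGF-beta 1, came closest to the threshold. Its probe set 1448870_at read 9.0, 8.8, 9.0, 8.9 and 9.1 in mutant replicates 1 to 5. Controls read 9.1, 9.4, 9.2, 9.1 and 9.3, so the groups met at 9.1. The log2 fold change was -0.26 (SE 0.08, 95% confidence interval -0.44 to -0.08, limma adjusted p = 0.102; exact two-sided permutation p = 0.0238). Across genes its adjusted p was 0.0619 with all arrays and 0.0424 without control replicate 1, the only array whose removal gave a call; it was also called across genes among the brighter 60% (0.0442) and with array weights (0.0321). On 1419786_at mutants read 5.4 to 5.6 and controls 5.3 to 5.8, with a log2 fold change of 0.00. On 1447547_at mutants read 4.3 to 4.7 (median 4.5) and controls 4.2, 5.5, 4.7, 4.4 and 5.1, with a log2 fold change of -0.30 and a confidence interval of -0.76 to 0.16. That probe set was dim, with a mean at percentile 24.1 of all probe sets. With Eif2s3y as a covariate the differences of 1447547_at and 1448870_at were -0.03 and -0.16, and that of 1419786_at was 0.11, none called.

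Ltbp2 and Ltbp3 showed no difference that passed the test. Ltbp2, which binds fibrillin but is not known to carry latent TGF-beta, read 7.4 to 8.0 in mutants (median 7.5) and 6.6 to 8.2 in controls (median 7.4). Control replicates 1 and 2 were the lowest and the highest of all arrays for Ltbp2. The log2 fold change was 0.16, with an interval of -0.36 to 0.68; it was -0.05 without control replicate 1 and 0.51 with Eif2s3y as a covariate (limma adjusted p = 0.197). Ltbp3, known for its part in skeletal and tooth growth, had 4 probe sets. On 1418049_at mutants read 9.9 to 10.1 and controls 9.7 to 10.2, and on 1438312_s_at mutants read 10.7 or 10.8 and controls 10.4 to 10.9, with log2 fold changes of 0.00 and 0.02. The intervals of these were -0.21 to 0.21 and -0.18 to 0.22. The other probe sets, 1437833_at and 1456189_x_at, which share a source accession, gave 0.34 and 0.26, and both came to 0.01 without control replicate 1, against 0.57 and 0.50 with Eif2s3y as a covariate, with none of these called. That array read 5.4 on 1437833_at, where the other 9 lay between 6.8 and 7.3.

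**Figure D4:**
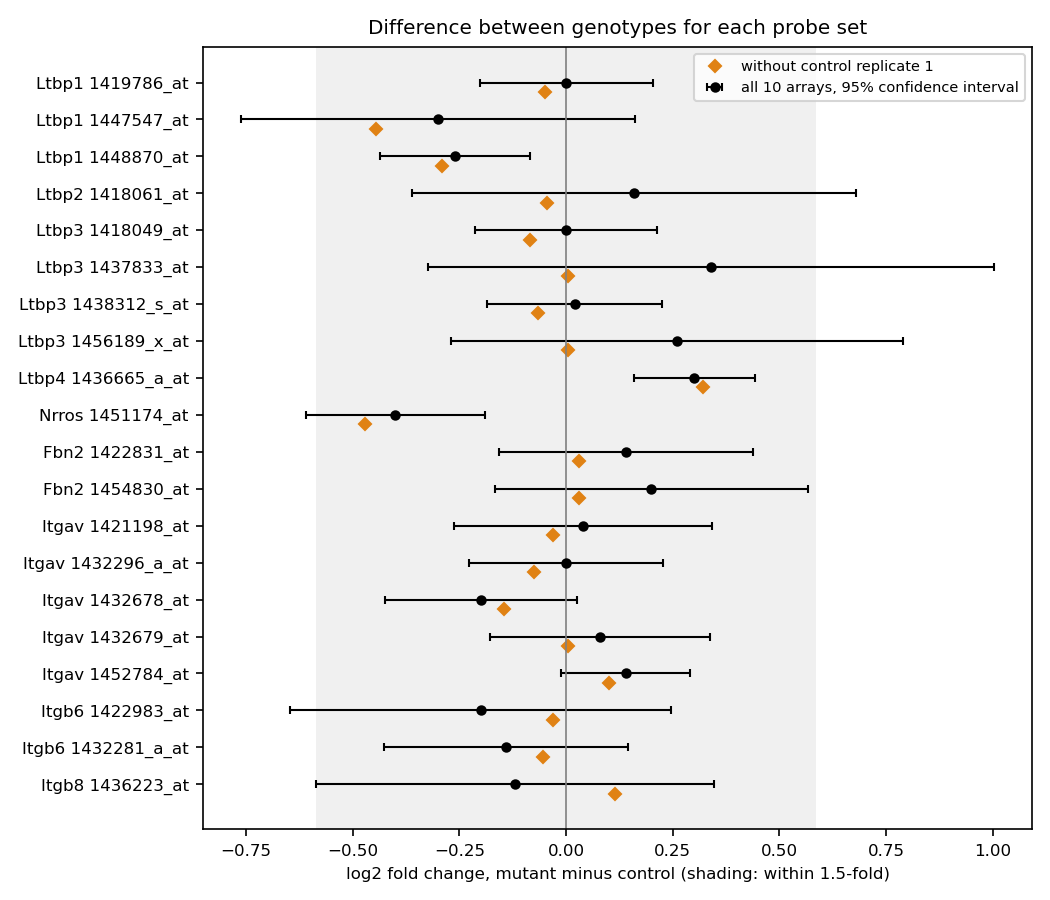
Log2 fold change, mutant minus control, of each member probe set with its 95% confidence interval from limma (black) and the value without control replicate 1 (orange diamonds); shading marks changes smaller than 1.5-fold. Ltbp4 (0.30) and Nrros (-0.40) are the 2 called probe sets, and the values of Ltbp3 1437833_at (0.34) and 1456189_x_at (0.26) move to 0.01 without that array.

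Fbn2 encodes fibrillin 2, the fibrillin that predominates in embryonic microfibrils, to which latent complexes attach. On 1422831_at mutant arrays read 12, 12.3, 11.9, 11.9 and 12.3, and controls 11.5, 12.1, 12.2, 11.9 and 12. On 1454830_at mutants read 10.7 to 11.2 (median 11.0), and controls 10.1, 11.0, 10.9, 10.9 and 11.0. The groups overlapped on both. The log2 fold changes were 0.14 and 0.20 (intervals -0.16 to 0.44 and -0.17 to 0.57, limma adjusted p = 0.60 and 0.542). Control replicate 1 was the lowest array on both probe sets, and without it both differences were 0.03. With Eif2s3y as a covariate they were 0.33 and 0.41, and neither was called (limma adjusted p = 0.155 and 0.184).

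No probe set of the activating integrins passed the test. Itgav encodes the alpha-v chain, shared by the integrins that release TGF-beta, and its brightest probe set (1452784_at) read 10.8, 10.7, 10.8, 10.9 and 10.8 in mutants and 10.5, 10.6, 10.8, 10.7 and 10.7 in controls. The groups overlapped at 10.7 and 10.8, and the log2 fold change was 0.14 (SE 0.07, interval -0.01 to 0.29, limma adjusted p = 0.291). The other 4 Itgav probe sets lay between -0.20 and 0.08, with mutant and control arrays overlapping on each. On 1432678_at, which gave the -0.20, mutants read 3.5 to 3.9 and controls 3.8 to 4.2, a mean at percentile 13.4 of all probe sets. On 1421198_at mutants read 6.9 to 7.5 and controls 6.9 to 7.4, and on 1432296_a_at mutants read 5.6 to 5.8 and controls 5.4 to 5.9. The probe set 1432679_at (4.9 to 5.4 in mutants, 4.7 to 5.2 in controls) shares a source accession with 1432678_at, and their deviations from the group means ran opposite to each other (Pearson r = -0.83 over 10 arrays, a description without a test).

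Itgb6, the epithelial partner chain, had dim signals, with means at percentiles 28.2 and 23.5 of all probe sets. On 1422983_at mutants read 4.5 to 5.2 (median 4.8) and controls 4.6 to 5.7 (median 4.9), with a log2 fold change of -0.20 (interval -0.65 to 0.25). On 1432281_a_at mutants read 4.4 to 4.6 and controls 4.2 to 5.0, and the log2 fold change was -0.14 (interval -0.43 to 0.15). Itgb8, the partner chain known from neural and vascular development, read 7.8, 8.1, 7.9, 7.7 and 7.7 in mutants and 8.9, 7.8, 7.7, 7.7 and 7.7 in controls. Apart from the 8.9 of control replicate 1, all Itgb8 values lay between 7.7 and 8.1. Its log2 fold change was -0.12 (interval -0.59 to 0.35) with that array, 0.12 without it and -0.36 with Eif2s3y as a covariate, and none of these was called. Control replicate 1 was the highest array for both Itgb6 probe sets and for Itgb8. It was also the highest for the median of 15 epithelial markers, at 0.38 above the mean of the arrays; mutants lay between -0.15 and 0.21 and controls 2 to 5 between -0.25 and -0.03. The log2 of the mean linear signal of those markers was 10.89 in that array, 10.48 to 10.81 in mutants and 10.23 to 10.61 in controls 2 to 5. None of the epithelial markers was called by limma with all arrays, and 4 had an unadjusted p under 0.05 (Krt8, Krt18 and Col17a1 higher, Trp63 lower at -0.24), near the 25.2% of all genes that did. Without control replicate 1, 4 of the 15 were called higher (Cdh1, Krt8, Krt18 and Col17a1), where 9.88% of all genes were called. The part of the epithelial share in these 3 readings was not tested.

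For 6 of the 18 uncalled probe sets the 95% confidence interval reached a 1.5-fold change, so a change of that size lay within the interval: Ltbp1 1447547_at, Ltbp2, Ltbp3 1437833_at and 1456189_x_at, Itgb6 1422983_at, and Itgb8. On simulated arrays with this layout, 29 of 50 probe sets changed 1.5-fold were recovered, 47 of 50 changed 2-fold and 0 of 50 changed 1.2-fold. The simulation had independent noise, no outlying array and a smaller share of changed probe sets than the data called. Its adjusted threshold was therefore stricter, and these shares do not carry over directly to the members.

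Apart from genotype, several members varied together. After removal of the group means, Nrros followed Ltbp1 across the 10 arrays, with Pearson r of 0.91, 0.88 and 0.77 for the Ltbp1 probe sets 1419786_at, 1447547_at and 1448870_at. It also followed Ltbp2, with r of 0.87. Nrros had an SD of 0.04 in mutants and 0.22 in controls. Its correlations, those with genes outside the members included, therefore came almost wholly from the controls. Control replicate 2 was the highest array for all of these probe sets, at 5.8, 5.5 and 9.4 for Ltbp1, 8.2 for Ltbp2 and 7.9 for Nrros. Without control replicates 1 and 2 the correlations were 0.64, 0.45 and 0.80 with Ltbp1 and 0.02 with Ltbp2, so that with Ltbp2 rested on those arrays. In the arrays left, Nrros read 7.1 or 7.2 in mutants and 7.5 or 7.6 in controls, 1 rounding step in each group. The values with Ltbp1 therefore cannot show a link apart from those arrays. Across the whole array, the genes closest to Nrros in this sense were Alkbh6, Ptgis and Fndc1 (r = 0.96, 0.96 and 0.95 over 10 arrays), and those closest to Ltbp4 were 4930413F20Rik, Pdlim2 and Cxcl14 (r = 0.96, 0.95 and 0.92). They were picked as the highest of 13742 candidate genes. Without control replicate 1, 2 of these 6 genes, 4930413F20Rik and Pdlim2, remained among the closest 3, and those of Nrros fell to ranks 41, 74.5 and 88.

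The other genes of TGF-beta storage and activation were taken from 5 lists with 41 measured genes and read across genes, 1 probe set each. In the mutant 3 of them rose, 1 fell and 37 did not pass the test; the calls were 4 of 41, near the 8.26% of all genes called (2.90% higher and 5.36% lower). The median log2 difference was 0.06, against 0.00 over all genes. Among the precursors and their carriers, Tgfb2, the ligand whose peptide lacks the RGD motif, was the 1 of 4 that changed. It read 10.3 to 10.6 in mutants and 8.9 to 9.7 in controls, with a log2 fold change of 0.94 (SE 0.14, limma adjusted p = 0.00322). Each of its 4 probe sets passed the test. Tgfb1, the ligand that Nrros holds, read 8.1, 8.1, 7.0, 8.2 and 8.1 in mutants and 8.1 to 8.5 in controls and was not called (-0.38, interval -0.82 to 0.06), nor was Tgfb3 (0.10, interval -0.04 to 0.24). Of 4 receptors, the coreceptor Tgfbr3 was higher (0.64, SE 0.13, limma adjusted p = 0.0156), although its dimmer probe set was not called (0.44). By limma, none of the 5 other RGD-binding integrin subunits passed the test, and none had an unadjusted p under 0.05, the smallest being that of Itgb3 (0.16, limma adjusted p = 0.480).

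Of 17 microfibril partners and crosslinking genes, 1 was higher and 1 lower. Fbln5, encoding fibulin 5 of elastic fibres, read 9.6, 9.6, 9.6, 9.7 and 10 in mutants and 10.3 to 11.0 in controls, a log2 fold change of -0.92 (SE 0.12, limma adjusted p = 0.00191), while its other probe set moved by -0.06. Adamtsl2, whose product binds fibrillin and Ltbp1, read 7.1 to 7.3 in mutants and 6.7 to 7.0 in controls (0.26, SE 0.07, limma adjusted p = 0.0457), a call that held in 1 of 10 fits that left out an array and was lost across probe sets (0.0801). Without control replicate 1 the same list had 2 higher and 5 lower, the added calls being Thsd4, a fibrillin-binding relative of Adamtsl2 (0.38), and the microfibril gene Mfap2 (-0.33), Emilin1, which restrains processing of the TGF-beta precursor (-0.37), Fbln1 (-0.29) and Vcan (-0.28). A dimmer probe set of Fbln1 (fibulin 1) passed across probe sets with all arrays (-0.36, limma adjusted p = 0.0490) and not without control replicate 1 (0.0527), while another gave 0.12. Control replicate 1 had the lowest median for this list, -0.40, while mutants lay between -0.07 and 0.04 and controls 2 to 5 between 0.04 and 0.13. Of 11 proteases and other activators none was called with all arrays, with Plat, encoding tissue plasminogen activator, closest (-0.40, limma adjusted p = 0.0646), and Mmp2, a gelatinase, was lower without control replicate 1 (-0.27, limma adjusted p = 0.0113). Of those 11, 2 had an unadjusted p under 0.05, Plat and Thbs1 (0.36), which encodes thrombospondin 1, an activator of latent TGF-beta; 25.2% of all genes had one, so this count does not stand out. Over all 41 genes, 10 were called without that array, a larger share than the 9.88% of all genes called in that fit. Of these, 2 higher and 5 lower were among the 17 microfibril partners and crosslinking genes. With any other single array left out, 3 to 6 of the 41 were called. The cause of this dependence on control replicate 1 was not tested.

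**Figure D5:**
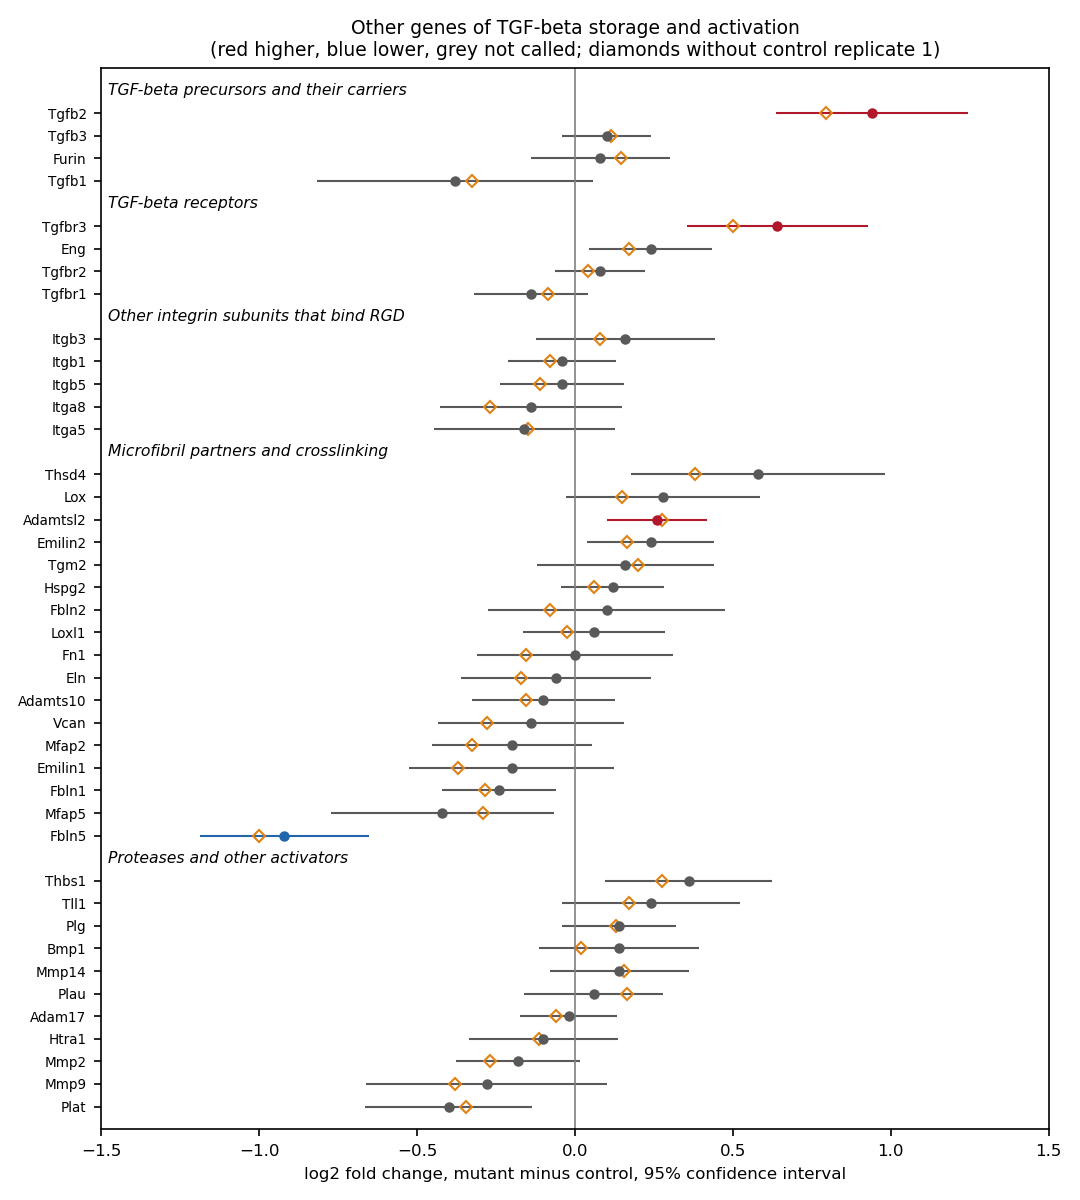
Log2 fold change, mutant minus control, with 95% confidence intervals for 41 genes in 5 lists of TGF-beta storage, release and reception, 1 probe set per gene; red genes were higher, blue lower, grey not called, and orange diamonds give the value without control replicate 1. Tgfb2 (0.94), Tgfbr3 (0.64) and Adamtsl2 (0.26) were higher and Fbln5 (-0.92) lower.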

How the data were processed

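The deposited values are log2 signals that the authors made with RMA (background correction, quantile normalization and summary per probe set), per the submitters' processing notes; no version is named there. They carry 1 decimal and run from 2.2 to 14.3, with array medians of 6.4 or 6.5, so differences move in steps of 0.1 and ties are common. The sources used here do not give other software, filters or batches. Arrays give no read depth; the number of arrays limits the precision.

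Groups came from the genotype labels. From these values, limma 3.58.1 (R 4.3.3; lmFit and eBayes, two-sided, Benjamini-Hochberg over the whole table, threshold 0.05) was fitted to all 45101 probe sets with no filter, and again to 18194 genes, each by its brightest probe set among the 34958 with 1 gene symbol in the platform annotation (932 had several and 9211 none). Of those 34958, 34754 were found by Entrez identifier in a RefSeq table (GRCm38.p6) that gave current symbols. Single values were also tested with an exact two-sided permutation test. Marker and pathway lists were read by their counts and medians, without a set test. A list's summed level in an array is the log2 of the mean linear signal of its genes, and its median deviation is the median, over genes, of the difference from the gene's mean over the arrays. Likeness was the Pearson correlation of residuals from the group means, among genes with a residual SD of at least 0.1.

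The members and lists were chosen with earlier results of these data known. Named genes were all member probe sets, Tgfbr2 and the 3 genes most alike to each called member. In each pathway list they were the called genes or the gene with the smallest p. In the marker lists the called genes were named, except those of skeletal muscle, which were given by counts and medians. Genes called only without control replicate 1, Csf1r, C1qa, Tyrobp, Mrc1, Pdgfrb, Tgfb1, Tgfb3, Thbs1, Trp63 and Fbln1 were named after their values were seen. Alternatives were a brightness filter, another variance model, renormalization, centring, array weights, a replicate block, Eif2s3y as a covariate, the mean of a gene's probe sets, and leaving out each array. Lrrc32 and Efemp2 of the lists had no probe set with that symbol and were not analysed here. The fit was tested on simulated data. Arrays with the same replicate number did not deviate together (r from -0.06 to 0.07), so the numbers were not used as pairs.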

Additional observations from a re-analysis of the deposited data

Results flagged for a closer look

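Within groups of 5 arrays, the highest or lowest array was held against Dixon's 95% value. Among 40 member groups (20 probe sets in 2 genotypes) 5 had such an array, and among 82 groups of the 41 pathway genes 20 had one, where chance gives about 1 in 20. Control replicate 1 was that array in 15 of the 25, and in 6 the whole group spanned at most 0.3 log2 units, so the gap was 1 to 3 rounding steps.

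Among the members, control replicate 1 read 5.4 on Ltbp3 1437833_at (other controls 6.8 to 7.2), 10.1 on Fbn2 1454830_at (10.9 to 11.0) and 8.9 on Itgb8 (7.7 to 7.8). Mutant replicate 2 read 7.1 for Nrros, where the other mutants read 7.2. Mutant replicate 1 read 3.5 on Itgav 1432678_at, where the others read 3.8 or 3.9.

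Among the pathway genes, control replicate 1 was low for Tgfb2 (8.9, other controls 9.5 to 9.7), Tgfbr3 (9.0 against 9.6 to 9.8), Eng (8.3 against 8.6 or 8.7), Mfap2 (11.6 against 12.2 or 12.3), Fbln2 (10.2 against 11.0 to 11.3) and Emilin1 (9.1 against 9.9 or 10). It was also low for Thsd4 (8.6 against 9.5 to 9.8), Eln (9.7 against 10.2 to 10.4), Mmp2 (10.8 against 11.2 or 11.3), Bmp1 (9.4 against 9.9 to 10.1) and Adam17 (8.8 against 9.0), and high for Plau (5.1 against 4.5 or 4.6). Of the other controls, replicate 3 read 6.7 for Adamtsl2 (7.0 in the rest) and replicate 2 read 10.1 for Htra1 (9.4 to 9.6).

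Among mutants, replicate 3 read 7.0 for Tgfb1 where the others read 8.1 or 8.2. Replicate 5 read 10 for Fbln5 (9.6 or 9.7 in the rest) and 12.2 for Fn1 (12.1). Replicate 2 read 11.3 for Fbln2 (10.9 or 11.0) and 9.5 for Emilin1 (9.6), and replicate 4 read 10.9 for Mmp2 (11.0).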

How the results depend on the processing

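The count of member probe sets called was 2 with all arrays, 1 with arrays centred on their medians, 0 with the replicate block, 0 with Eif2s3y as a covariate and 0 to 2 when each array was left out. The count over member genes was 2, and became 0 with the replicate block, 1 with Eif2s3y and 1 to 3 without single arrays. With the replicate block the adjusted p was 0.112 for Ltbp4 and 0.130 for Nrros over probe sets, and 0.0593 and 0.0722 over genes; the replicate numbers are only names here, so a call lost there does not show a weaker effect. All probe sets called numbered 1468, against 2901 with array weights, 98 with the replicate block, 911 with Eif2s3y and 464 to 1988 without single arrays. All genes called numbered 1503, against 532 with the replicate block and 643 to 1798 without single arrays. Called genes of the pathway and marker lists numbered 21, against 35 with array weights, 7 with the replicate block, 12 with Eif2s3y and 8 to 31 without single arrays. For the pathway lists alone they numbered 4, against 11 with array weights and 3 to 10 without single arrays. The count of most alike genes that stayed among the closest was 6 by construction and 2 without control replicate 1. The cause of these changes was not tested. No called value changed sign under any alternative run, while 4 uncalled member probe sets took the opposite sign in 9 fitted values, and 3 others had a difference of 0 with all arrays. Ltbp4 and Nrros kept their direction throughout. Rounding to 0.1 and the dim signals of Ltbp1 1447547_at, both Itgb6 probe sets and Itgav 1432678_at limit what small differences can be read.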
